A study of Mus musculus with 8 samples.

Results

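The contractile genes of the embryonic heart were followed in chimaeric mouse embryos in which cells lacking the Tet enzymes developed beside normal host cells. The 10 genes, chosen by symbol among the 55422 features of the count matrices, were Tnnt2, Tnni1, Tnnc1, Myl4, Myl7, Actc1, Myh6, Myh7, Ttn and Nppa, and all 10 were found once. Tet-TKO embryonic stem cells, a line carrying a knockout of Tet1, Tet2 and Tet3 on a C57BL/6J-129Sv background and labelled with an H2B-tdTomato transgene driven by the CAG promoter, were injected into C57BL/6J host blastocysts that were carried by CD1 recipients. Chimaeric embryos were pooled and sorted as living single cells into tdTomato-positive cells (Tet-TKO) and tdTomato-negative cells (WT host), and each fraction was sequenced as a droplet single-cell RNA library with unique molecular identifiers (UMIs). Embryonic day 8.5 (E8.5) was represented by 4 Tet-TKO and 2 WT host libraries, and E7.5 by 1 library of each genotype. All the cells came from chimaeric embryos. The mutant cells all descended from 1 cell line and differed from the host cells in strain and injection history as well as in Tet genotype, so these cannot be told apart. The sources do not say whether the libraries of a genotype came from separate pools of embryos, and p-values measure only the spread between libraries.

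The sarcomere is the repeating contractile unit of striated muscle. In it, the motor proteins of the myosin thick filament pull on actin thin filaments, the troponin complex makes that contact depend on calcium, and titin spans from the end of the unit to its middle. The first cardiac sarcomeres assemble as the heart tube forms, with atrial and ventricular isoforms still expressed side by side. Tet enzymes oxidise 5-methylcytosine, the first step of active DNA demethylation.

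The 10 genes lie on 5 chromosomes. In mm10, Myh6 occupies chr14:54941921-54966927 and Myh7 chr14:54970684-54994626, both on the minus strand and 3756 bases apart, and Tnnc1 is on the same chromosome at chr14:31208312-31211729. Tnni1 (chr1:135779434-135810989) and Tnnt2 (chr1:135836354-135852260) lie on the plus strand of chromosome 1. Actc1 (chr2:114047282-114053548) and Ttn (chr2:76703980-76982547) are on the minus strand of chromosome 2. Myl7 (chr11:5896637-5898782, minus strand) and Myl4 (chr11:104550663-104595753, plus strand) are on chromosome 11, and Nppa is at chr4:148000722-148002079 on the plus strand. Myh7 overlaps the antisense gene Mhrt, and Tnnc1 overlaps Nisch on the other strand. The study's methods give the default settings of Cell Ranger, which count reads on the strand of the gene that map to 1 place, so reads that fit both Myh6 and Myh7 equally are left out of both.

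Promoter sequences are shown for 3 members: Nppa and Myl7, whose levels were lower in Tet-TKO cells by the test below, and Myh7, the one member with a higher mean. They are the 250 bases before a RefSeq start of each gene in GRCm38.p6 (mm10), written 5′ to 3′ on the strand of the gene. The windows are chr4:148000472-148000721 (plus) for Nppa, chr11:5898783-5899032 (minus) for Myl7 and chr14:54994627-54994876 (minus) for Myh7. Capitals mark matches on either strand to TATAAA, to the CArG box that serum response factor binds, to the MEF2 motif, to TNAAGTG (the core bound by NKX2-5) or to GATAA (the core bound by GATA factors).
Nppa: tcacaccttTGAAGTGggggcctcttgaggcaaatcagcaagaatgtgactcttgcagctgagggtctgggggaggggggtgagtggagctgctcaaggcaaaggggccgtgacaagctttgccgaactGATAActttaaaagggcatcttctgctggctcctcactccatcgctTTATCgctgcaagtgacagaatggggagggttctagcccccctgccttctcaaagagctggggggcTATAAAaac
Myl7: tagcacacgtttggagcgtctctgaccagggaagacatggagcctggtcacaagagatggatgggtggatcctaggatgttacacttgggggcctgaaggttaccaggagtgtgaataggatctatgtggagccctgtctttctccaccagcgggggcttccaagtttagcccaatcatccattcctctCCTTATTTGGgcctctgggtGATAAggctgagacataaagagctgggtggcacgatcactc
Myh7: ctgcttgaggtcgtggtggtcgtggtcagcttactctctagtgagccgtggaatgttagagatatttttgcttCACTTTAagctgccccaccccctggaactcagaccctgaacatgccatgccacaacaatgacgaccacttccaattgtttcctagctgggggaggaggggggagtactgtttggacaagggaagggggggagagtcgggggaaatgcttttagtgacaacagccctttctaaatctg
The Nppa window held TATAAA 9 bases before the start, TNAAGTG 241 bases before it, and GATAA at 121 and 75 bases before it. The Myl7 window held a CArG box 61 bases and GATAA 41 bases before the start, and the Myh7 window shown held only TNAAGTG, 177 bases before it. Another RefSeq start of Myh7 has its window at chr14:54994550-54994799, which held none of these motifs. The windows of Tnni1, which was also lower by the test below and is not shown, held none of these motifs. Over 13 windows of the 10 members, TATAAA was found in 1 member, the CArG box in 2 (Myl7 and Actc1), the MEF2 motif in 1 (Ttn), TNAAGTG in 2 and GATAA in 3. Among 32851 windows of the same length, TATAAA was in 12.4%, the CArG box in 1.47%, the MEF2 motif in 2.92%, TNAAGTG in 10.1% and GATAA in 22.6%. None of the matches shown overlaps another motif. Myl4 had the most CG pairs, 23 in its window, against a median of 6 over all windows and 0 to 6 in the other members. A match of letters describes the sequence and does not show binding.

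Cell classes were rebuilt from the counts with the 10 genes left out of the clustering. At E8.5 the libraries held 7045, 9552, 2304 and 1012 cells (Tet-TKO 1 to 4) and 8260 and 9038 cells (WT host 1 and 2), with 65601218 to 136982886 UMIs per library over both stages. The Tet-TKO libraries formed like pairs. The summed counts of cardiomyocyte-like cells differed between Tet-TKO 1 and 2 by a chi-square of 1.65 per degree of freedom and between 3 and 4 by 3.78, against 14.95 to 18.97 for the other Tet-TKO pairs and 2.83 for the WT pair. Against the host libraries the value was 11.73 to 15.17 for Tet-TKO 1 and 2 and 19.78 to 22.79 for 3 and 4. By this measure Tet-TKO 1 and 2 were no nearer to 3 and 4 than to the host libraries. Libraries 3 and 4 held fewer, deeper cells, with medians of 40386.5 and 68704 UMIs per cell against 12176 to 18763 in the other E8.5 libraries. No 2 libraries shared more than 28 cell barcodes. Some results below are therefore also given with Tet-TKO 1 and 2 alone or 3 and 4 alone.

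Cardiomyocyte-like cells numbered 287, 278, 180 and 70 in the Tet-TKO libraries and 290 and 262 in the WT host libraries. Their tdTomato level, a check of the sort, was 130 to 216 CPM (the UMIs of a gene per 1000000 UMIs of the class in a library) in Tet-TKO libraries and 0 and 0.47 CPM in WT host libraries. Tet1 measured 7.14 to 13.3 CPM against 23.1 and 23.8 CPM, Tet2 7.46 to 18.4 against 6.14 and 8.55 CPM and Tet3 19.8 to 44.2 against 28.6 and 34.2 CPM, but 3′ tags that lie outside the deleted part of a gene check nothing about its knockout. The share of cells in the class was 4.07%, 2.91%, 7.81% and 6.92% in Tet-TKO 1 to 4 and 3.51% and 2.90% in WT host 1 and 2. These ranges overlapped, and the difference (log2 fold change 0.75, SE 0.49) did not pass the test (edgeR quasi-likelihood, Benjamini-Hochberg adjusted p = 0.268 over 31 classes, of which 29% were called at an adjusted p of 0.05). The class joined 2 clusters. In cluster 25, led by Ankrd1, Fbxl22, Slc8a1, Sh3bgr and Nkx2-5, 12 of 12 cardiomyocyte markers that are not among the 10 genes were raised. In cluster 26, led by Sfrp5, Mab21l2, Wnt2, Smarcd3 and Tbx5, 11 were raised, and the 10 genes were far lower there.

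In cardiomyocyte-like cells at E8.5, 9 of the 10 genes had a lower fitted level in Tet-TKO than in WT host cells and Myh7 a higher one. Of the 10, Tnni1, Myl7 and Nppa were called lower at an adjusted p of 0.01 and a log2 fold change of 1, and none was called higher. Over all 11707 genes tested, 0.914% were called, 0.683% lower and 0.231% higher. The median log2 fold change was -0.75 over the 10 genes and 0.02 over all genes. All 4 Tet-TKO libraries lay below both WT host libraries for 6 of the 10 (Tnni1, Tnnc1, Myl4, Myl7, Actc1 and Nppa), as did 11.9% of all genes, and in none of the 10 did all 4 lie above, as in 12.8% of all genes. Every call in the class needs both host libraries: with WT host 1 or WT host 2 left out, none of the 10 was called. A level in CPM compares a gene with itself across libraries, since each molecule gives 1 tag whatever its length.

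Among the thin-filament genes, Tnni1 encodes the slow skeletal troponin I, the inhibitory subunit that the embryonic heart uses before the adult cardiac form. It measured 605, 625, 771 and 722 CPM in Tet-TKO 1 to 4 and 1383 and 1453 CPM in WT host 1 and 2. Every Tet-TKO library was under the lower host library by a wide margin, and the 4 lay close together. The log2 fold change was -1.11 (SE 0.12), and the adjusted p was 0.0016 (quasi-likelihood test of edgeR, adjusted by Benjamini and Hochberg). The call was lost without WT host 1 or 2, and in 3 of 22 alternatives in all. The log2 fold change lay between -1.14 and -1.08 over all single-library omissions. Tnnt2 encodes cardiac troponin T, which ties the complex to tropomyosin. It measured 1832, 1818, 2782 and 2253 CPM against 2543 and 2430 CPM. Tet-TKO 3 exceeded both host libraries, the groups overlapped, and the log2 fold change was -0.25 (edgeR adjusted p = 0.53). Tnnc1, the calcium-binding troponin C shared by heart and slow muscle, measured 693, 728, 1117 and 917 CPM against 1358 and 1283 CPM. The groups did not overlap but Tet-TKO 3 came near the host range, and the log2 fold change of -0.67 did not pass (edgeR adjusted p = 0.080). Actc1 encodes the cardiac actin of the thin filament. It measured 1365, 1164, 2880 and 2611 CPM in Tet-TKO 1 to 4 and 4675 and 5078 CPM in the host libraries. The Tet-TKO libraries split into a lower pair (1 and 2) and a higher pair (3 and 4), all below the host. The log2 fold change was -1.35 (SE 0.29) and missed the threshold (edgeR adjusted p = 0.048).

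Among the thick-filament genes, Myl7 encodes the atrial regulatory light chain, which the whole early heart tube expresses. It measured 2991, 3040, 4526 and 3343 CPM in Tet-TKO 1 to 4 and 7117 and 6664 CPM in WT host 1 and 2. The groups were well apart, with Tet-TKO 3 the nearest to the host. The log2 fold change was -1.04 (SE 0.16), just past both thresholds (edgeR adjusted p = 0.0096). It was no longer called when any one of Tet-TKO 1, 2, 4 or either host library was left out, with log2 fold changes between -1.15 and -0.97. It was also lost with the size factors of DESeq2, with like libraries summed, with only Tet-TKO 3 and 4 and with only cells whose tdTomato matched their sort, 9 of 22 alternatives in all. Myl4, the atrial and embryonic essential light chain, measured 1755, 1707, 2642 and 2381 CPM against 2969 and 2985 CPM. The groups did not overlap, and the log2 fold change of -0.54 did not pass (edgeR adjusted p = 0.14). Ttn encodes titin, the molecular spring of the sarcomere. It measured 383, 313, 1332 and 915 CPM against 1043 and 1174 CPM. Libraries 1 and 2 were low, library 3 was above the host, and the difference did not pass the test (log2 fold change -0.67, edgeR adjusted p = 0.55).

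The cardiac myosin heavy chains followed the like pairs of Tet-TKO libraries. Myh6, the alpha chain of atrial and adult mouse heart, measured 64.7, 59.1, 302 and 293 CPM in Tet-TKO 1 to 4 and 275 and 326 CPM in WT host 1 and 2. Tet-TKO 1 and 2 were low, while 3 and 4 lay within the host range. Myh7, the beta chain of the embryonic ventricle, measured 179, 197, 643 and 524 CPM against 220 and 227 CPM. Here libraries 1 and 2 lay just below the host and 3 and 4 well above it, so that neither chain passed the test (log2 fold changes -0.83 for Myh6 and 0.71 for Myh7, edgeR adjusted p = 0.56 and 0.53). The ratio of the chains was steadier than either level. Of the Myh6 and Myh7 UMIs together, Myh7 held 73.5%, 77.0%, 68.1% and 64.1% in the Tet-TKO libraries and 44.4% and 41.0% in the host libraries. Every Tet-TKO share was above both host shares, including the shares of libraries 1 and 2, in which both chains were low. The mean share was 70.7% ± 5.69 (SD, n = 4) against 42.7% ± 2.39 (SD, n = 2), a difference of 27.9 percentage points. The exact two-sided permutation test of the library labels, over 15 arrangements, gave p = 0.1333, the smallest this design allows. The share compares the tags of a pair of genes of like length and was not corrected for length.

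Nppa encodes atrial natriuretic peptide, a hormone of the working myocardium rather than a part of the sarcomere. Its UMIs in the class numbered 0, 0, 58 and 9 in Tet-TKO 1 to 4 and 278 and 388 in WT host 1 and 2, or 0, 0, 8.32 and 2.03 CPM against 65.6 and 118 CPM. Every mutant library was far below both host libraries. Set against a floor of 3 counts per library, the host mean of 92.1 CPM was at least 141-fold above Tet-TKO 1 and at least 94.6-fold above Tet-TKO 2, and it was 11.1-fold above Tet-TKO 3 and 45.4-fold above Tet-TKO 4. The fitted log2 fold change of -4.90 (SE 0.70; edgeR adjusted p = 0.0070) depends on the prior count because of the zeros. The call was lost without Tet-TKO 4 or either host library, and DESeq2 gave an adjusted p of 0.37. In all, 5 of 22 alternatives lost it.

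**Figure D1:**
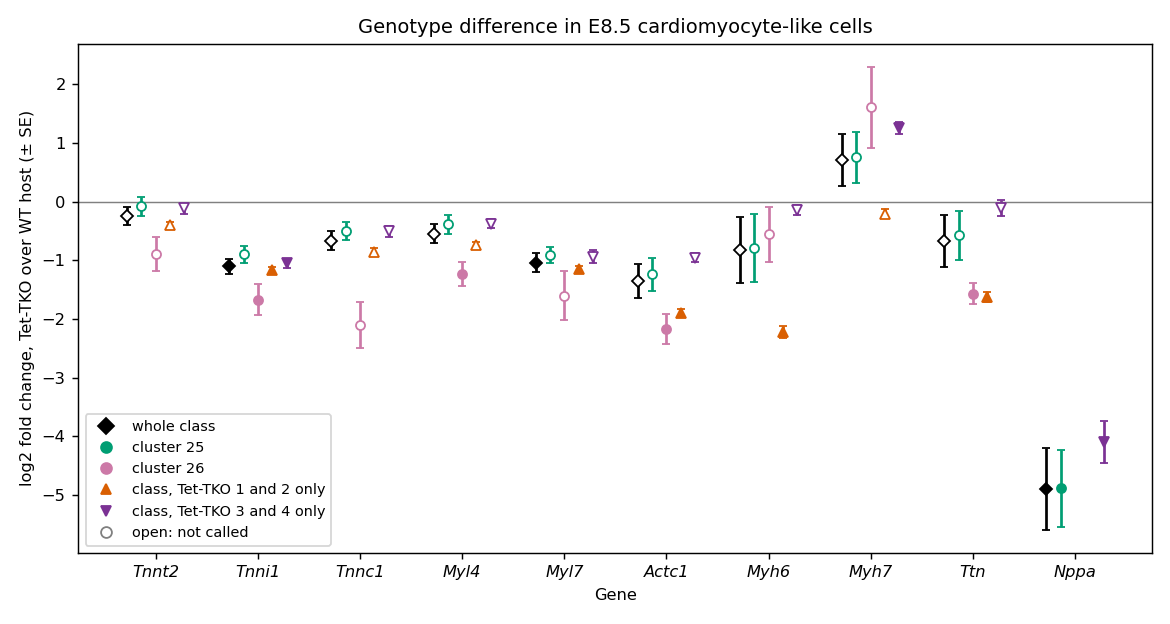
Fitted log2 fold changes (Tet-TKO over WT host) of the 10 genes at E8.5 with SE bars, in the whole cardiomyocyte-like class, in clusters 25 and 26, and in the class with only Tet-TKO 1 and 2 or only 3 and 4, filled where called. Myh7 in the class is 0.71 with all libraries, -0.21 with Tet-TKO 1 and 2 and 1.26 with 3 and 4, Myh6 is -0.83, -2.23 and -0.14, and Nppa has no point for Tet-TKO 1 and 2, which have 0 UMIs.

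Fits on the like pairs of Tet-TKO libraries, chosen after seeing the data, gave different values for the genes that followed the pairs. With Tet-TKO 1 and 2 alone, 2.74% of 10841 genes were called (2.08% lower and 0.655% higher), among them Actc1 (log2 fold change -1.90), Myh6 (-2.23) and Ttn (-1.62), while Myh7 (-0.21) was not. With Tet-TKO 3 and 4 alone, 5.1% of 11501 genes were called (2.34% lower and 2.76% higher). There Myh7 passed both thresholds at a log2 fold change of 1.26, while Myh6 (-0.14) and Ttn (-0.11) were near 0, and Actc1 (-0.96) and Myl7 (-0.94) fell short of the fold threshold. The pairs were formed with these levels in view, so the calls of both fits restate the levels of the libraries given above and are no independent support.

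**Figure D2:**
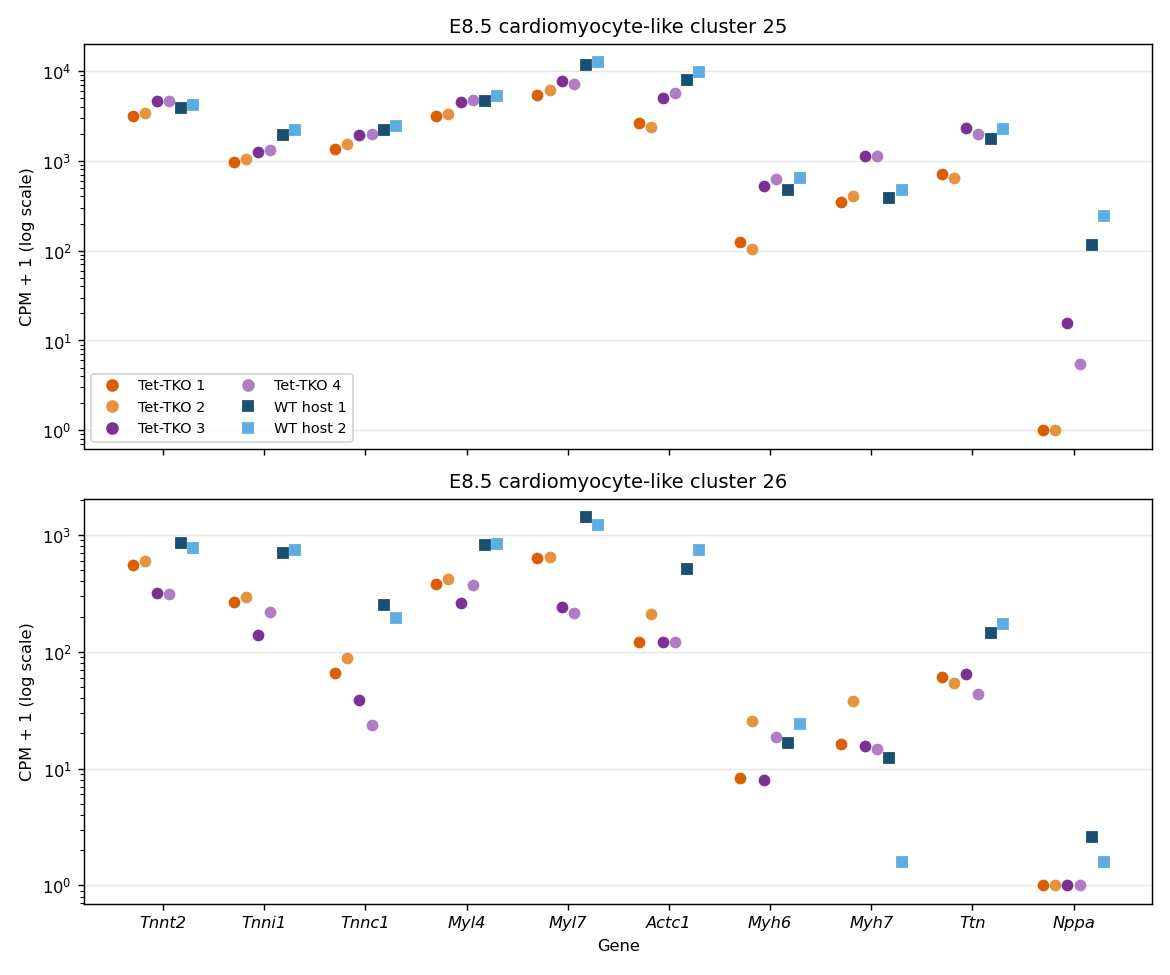
Levels of the 10 genes at E8.5 in cardiomyocyte-like clusters 25 (top) and 26 (bottom), as CPM plus 1 on a log axis, with 1 point per library (circles Tet-TKO, squares WT host). In cluster 25 Actc1 is at 2375 to 5592 CPM in Tet-TKO against 7917 and 9645 CPM in the host, while cluster 26 has 119 to 211 against 509 and 739 CPM.

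The 2 cardiac clusters were then taken apart. In cluster 25, which held 147, 124, 98 and 32 cells in the Tet-TKO libraries and 163 and 122 in the host libraries, Nppa was the single member called lower (log2 fold change -4.89, SE 0.66, edgeR adjusted p = 0.0046), where 0.602% of 10141 genes were called lower. Its levels were 0, 0, 14.7 and 4.46 CPM against 115 and 243 CPM, so that the host mean was at least 135-fold and at least 81.0-fold above Tet-TKO 1 and 2. The call was lost without Tet-TKO 4, WT host 1 or WT host 2, and in 5 of 14 alternatives in all. Myl7 measured 5430, 6076, 7789 and 7091 CPM against 11559 and 12412 CPM. Its groups were well separated, but the log2 fold change of -0.91 was under the fold threshold (edgeR adjusted p = 0.0103). Tnni1 was of the same kind, with 956, 1045, 1252 and 1322 CPM against 1920 and 2201 CPM and a log2 fold change of -0.90 (edgeR adjusted p = 0.0119). In 5 of the 10 genes (Nppa, Myl7, Tnni1, Tnnc1 and Actc1) all Tet-TKO libraries lay under both host libraries, as in 11% of all genes, and in none did all lie above, as in 12.1% of all genes. Actc1 measured 2651, 2375, 4982 and 5592 CPM against 7917 and 9645 CPM, the same split into pairs as in the whole class. Tnnt2 measured 3150, 3361, 4661 and 4578 CPM against 3857 and 4169 CPM, with Tet-TKO 3 and 4 above the host libraries and 1 and 2 below them.

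In cluster 26, which held 140, 154, 82 and 38 Tet-TKO and 127 and 140 host cells, the sarcomere genes were expressed at much lower levels. Of 9 members tested, 4 were called lower and none higher, where 0.563% of 9939 genes were called lower. The median log2 fold change of the 9 was -1.57. Actc1 measured 119, 211, 119 and 120 CPM against 509 and 739 CPM, and its log2 fold change of -2.17 (SE 0.25) was called (edgeR adjusted p = 0.0010). The Tet-TKO libraries were alike here except for library 2, which was higher. Ttn measured 59.8, 52.8, 64.0 and 42.6 CPM against 145 and 173 CPM and was called (log2 fold change -1.57, SE 0.18, edgeR adjusted p = 0.00095). In contrast to cluster 25, its 4 Tet-TKO values lay close together. Tnni1 measured 266, 294, 139 and 220 CPM against 694 and 741 CPM and was called (log2 fold change -1.67, SE 0.26, edgeR adjusted p = 0.0082). Myl4 measured 380, 421, 260 and 370 CPM against 812 and 832 CPM and was called (log2 fold change -1.24, SE 0.20, edgeR adjusted p = 0.0094). Both genes showed no overlap between the groups. Leaving out either host library ended all 4 calls. Leaving out Tet-TKO 4 also ended those of Tnni1 and Myl4, and leaving out Tet-TKO 1 that of Myl4. The call of Myl4 was lost in 7 of 14 alternatives, also with the size factors of DESeq2, with free RNA subtracted and with only Tet-TKO 1 and 2.

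The remaining members of cluster 26 were lower without passing the test, or too rare. Tnnc1 measured 65.0, 88.2, 37.5 and 22.7 CPM against 249 and 192 CPM (log2 fold change -2.10, edgeR adjusted p = 0.021), and 7 of 14 alternatives called it, among them those without Tet-TKO 2 or Tet-TKO 4. Myl7 measured 628, 649, 242 and 212 CPM against 1411 and 1205 CPM (log2 fold change -1.61, edgeR adjusted p = 0.11). Here it was libraries 3 and 4 that were lowest, the reverse of their order in cluster 25. Tnnt2 measured 555, 603, 316 and 311 CPM against 855 and 778 CPM, with no overlap but no call (log2 fold change -0.89, edgeR adjusted p = 0.22). Including Nppa, which had 0 UMIs in every Tet-TKO library and 3 and 1 in the host libraries, 8 of the 10 had all Tet-TKO libraries under both host libraries, as 10.5% of genes did. Myh7 had all 4 above, as 10.4% of genes did, but on 1 to 63 UMIs per library. The difference of the genotype effect between the clusters was tested itself. No member was called, where 0.0372% of 10756 genes were, so the changes in cluster 26 are not shown to differ from those in cluster 25.

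**Figure D3:**
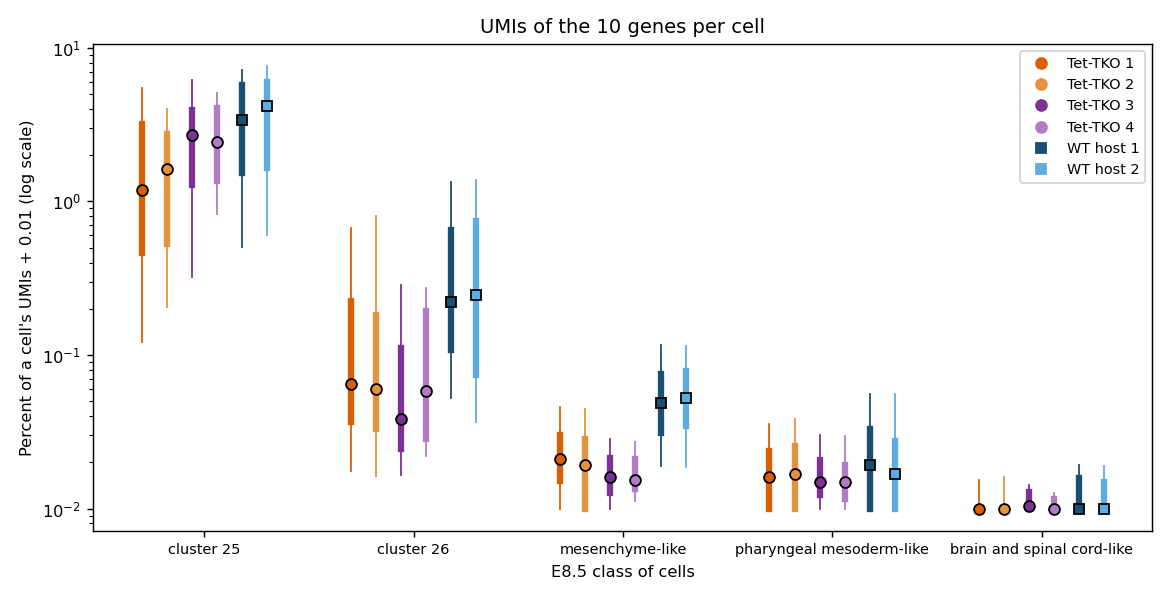
Percent of the UMIs of a cell that came from the 10 genes, plus 0.01 on a log axis, at E8.5 in 5 groups of cells, with the median of each library as a point, quartiles as a thick line and the 10th to 90th percentile as a thin line. Medians are 1.18 to 2.71% in Tet-TKO and 3.36 and 4.17% in WT host libraries in cluster 25, 0.028 to 0.055% and 0.212 and 0.234% in cluster 26, and near 0 in brain and spinal cord-like cells.

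The lower sums were also seen cell by cell. In cluster 25 the median cell gave 1.18%, 1.62%, 2.71% and 2.44% of its UMIs to the 10 genes in Tet-TKO 1 to 4 and 3.36% and 4.17% in WT host 1 and 2. In cluster 26 the medians were 0.055%, 0.050%, 0.028% and 0.048% against 0.212% and 0.234%. Both genotypes therefore differed between the clusters, and within each cluster every Tet-TKO median was below both host medians. To compare how many cells had a gene at all, each cell was thinned to 5000 UMIs, which left out 21 Tet-TKO and 20 host cells of cluster 25 and 11 and 9 of cluster 26. The median cell of cluster 25 then held 8, 8, 9 and 8 of the 10 genes against 8 and 8, and that of cluster 26 held 2, 2, 1 and 2 against 4 and 4. Nppa was found in 0 of 134, 0 of 120, 6.25% and 0 of 30 thinned cells of cluster 25 in Tet-TKO 1 to 4, against 13.1% and 17.0% in the host libraries. The zeros allow shares of up to 2.72%, 3.03% and 11.6% of cells with a UMI at this depth (95% exact binomial limits, counting error only), which is no limit on cells that express the gene, and without thinning the shares were 0%, 0%, 10.2% and 6.25% against 17.8% and 20.5%. Myh6 was found in 25.4%, 25%, 66.7% and 60% of them against 62.1% and 64.3%, and Myh7 in 64.2%, 69.2%, 87.5% and 83.3% against 60.1% and 66.1%. Unthinned, Myh6 was in 39.5 to 83.7% against 70.5 and 76.1% and Myh7 in 76.2 to 96.9% against 72.1 and 78.5%. In cluster 26 Tnni1 was found in 57.7%, 49.0%, 39.0% and 45.9% of Tet-TKO and 84.8% and 84.2% of host cells, and unthinned in 66.9 to 92.1% and 94.5 and 95%. In brain and spinal cord-like cells, which should lack these genes, a thinned cell held a median of 0 of the 10, and the most often found gene, Myl7, was in at most 4.03% of thinned and 15.5% of unthinned cells. Median depths were 10025 to 65906 UMIs per cell in the cardiac clusters and 11914 to 69296 in brain and spinal cord-like cells.

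Of 32 other genes of the sarcomere and of muscle cells, a list that also holds chaperones, the enzyme gene Pgam2 and the peptide gene Nppb, 29 were tested in the same class, of which 25 had a lower and 4 a higher fitted level, with a median of -0.70 against 0.02 over all genes. In this list 5 were called lower and none higher, where 0.683% of all genes were called lower. Tnni3, the adult cardiac troponin I that follows Tnni1, had the largest change of these, 9.14 ± 2.85 CPM (SD, n = 4) against 112 ± 19.1 CPM (SD, n = 2) and a log2 fold change of -3.61 (SE 0.22, edgeR adjusted p = 6.56e-05). The others were the skeletal troponin T gene Tnnt1 (log2 fold change -2.24), the Z-disc genes Csrp3 (-1.65) and Tcap (-1.36) and the muscle glycolytic gene Pgam2 (-1.12). Both troponin I genes, Tnni1 and Tnni3, were thus lower in the mutant cells. The 3 most abundant genes of the list were not called: Tpm1, the tropomyosin of the thin filament, measured 3396 ± 731 against 5028 ± 194 CPM, the smooth muscle actin gene Acta2 2025 ± 906 against 2722 ± 9 CPM, and Myl3, the ventricular essential light chain, 411 ± 185 against 977 ± 97.6 CPM (SD, n = 4 and 2). Of 10 genes of calcium handling, 8 were tested, 4 lower and 4 higher, none was called, and their median was 0.07. Their most abundant genes were Atp2a2, the pump that returns calcium to its store, at 316 ± 128 against 306 ± 55.6 CPM, Ryr2, the channel that releases it, at 81.5 ± 33.3 against 79.1 ± 5.09 CPM, and the junction gene Jph2, at 21.2 ± 10.9 against 25 ± 2.64 CPM. Of 10 skeletal muscle genes 4 were tested and none was called. The skeletal troponin T gene Tnnt3 had the higher mean in Tet-TKO cells (38.87 ± 10.0 against 17.6 ± 4.16 CPM), and the skeletal troponin I gene Tnni2 (13.0 ± 1.35 against 21.97 ± 0.0205 CPM) and the light chain gene Mylpf (18.1 ± 8.94 against 32.3 ± 3.96 CPM) the lower one. Of 6 smooth muscle genes all were tested, and Cnn1, which encodes calponin, was called lower (50.3 ± 7.83 against 120 ± 4.33 CPM, log2 fold change -1.30, edgeR adjusted p = 0.00094), while Tagln (577 ± 361 against 642 ± 95.4 CPM) and Myl9 (346 ± 127 against 363 ± 26.1 CPM) were not. Of the 12 cardiomyocyte markers 9 had a lower fitted level, 1 was called (Popdc2, -1.07), and their median was -0.18.

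Markers of other cell types were also measured in the class. Erythroid markers summed to 7.44 to 48.7 CPM in the Tet-TKO libraries and to 1399 and 4596 CPM in the host libraries, and 6 of the 7 tested were called lower. The same markers summed to 7.94 to 42.4 CPM and to 572 and 1558 CPM in brain and spinal cord-like cells. None of the 9 was at 0 in all libraries. Endothelial markers summed to 8.9 to 15.3 CPM against 23.5 and 17.2 CPM, and mesenchymal markers to 1203 to 1480 against 1057 and 1257 CPM. Pharyngeal mesoderm markers summed to 100 to 170 CPM against 185 and 165 CPM. No endothelial, mesenchymal or pharyngeal mesoderm marker was called. The part of any of these markers in the levels of the sarcomere genes was not tested.

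The 8 genes whose levels over 29 cell classes were most like those of the 10 genes were Hspb7, Ankrd1, Unc45b, Csrp3, Asb2, Fbxl22, 5430431A17Rik and Pgam2. Their Pearson correlations, across classes that share libraries, ranged from 0.908 to 0.945 and are given as a description. Hspb7 is a small heat shock protein of heart muscle, and Unc45b a chaperone of myosin. The members followed their own mean with correlations from 0.790 (Tnni1) to 0.959 (Myl7). The lower value of Tnni1 goes with its wider expression: 54.7 to 89.5% of its UMIs in an E8.5 library came from cardiomyocyte-like cells.

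**Figure D4:**
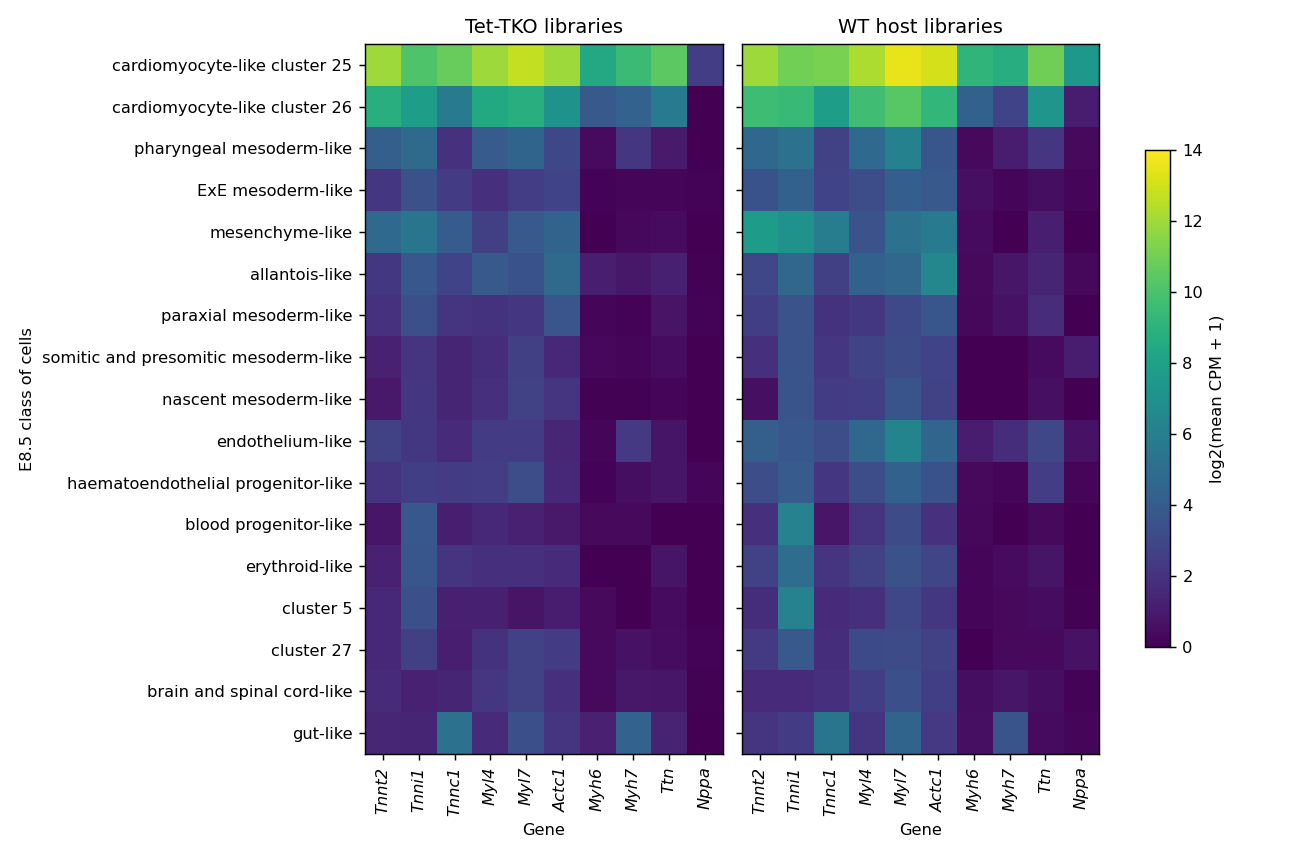
Heat map of the level of the 10 genes (columns) in the cardiomyocyte-like clusters, other mesoderm classes, brain and spinal cord-like and gut-like cells (rows) at E8.5, as log2 of the mean CPM plus 1 over the Tet-TKO (left) and WT host (right) libraries. Cluster 25 is the brightest row in both genotypes, and Tnnt2 in mesenchyme-like cells, for example, is 8.74 to 40.6 CPM in Tet-TKO and 201 and 205 CPM in WT host libraries.

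Outside the heart class the sarcomere genes were expressed at low levels in other mesoderm, and few of their differences passed the test. Over 13 other mesoderm classes, 60 pairs of gene and class could be tested, of which 56 had a lower and 4 a higher fitted level, with a median log2 fold change of -1.30. Of these pairs, 4 were called lower and none higher, where 0.483% of all pairs of gene and class were called lower. The pairs share libraries and are not independent. With Tet-TKO 1 and 2 alone 16 of 71 pairs were called, where 1.89% of all pairs were called in either direction. With 3 and 4 alone 23 of 49 pairs over 10 classes were called, where 4.84% of all pairs were. Both fits were chosen after seeing the data. In brain and spinal cord-like cells the genes measured 0 to 12.9 CPM in single libraries, a background that free RNA can give, and values near it are not read as expression. The fitted levels were lower in Tet-TKO there too, for 6 of the 7 members tested in brain and spinal cord-like cells (median log2 fold change -0.51), 6 of 7 in gut-like cells (-0.52) and 6 of 7 in surface ectoderm-like cells (-0.94), with none called. Free RNA was then subtracted, but only from the 10 genes, the gene lists and some marker lists. Of the 44 member pairs still tested, 4 were called. The share called lower over all pairs, nearly all of them left unsubtracted, was 0.44%. Those of Tnnt2 in mesenchyme-like cells and of Tnni1 in blood progenitor-like cells and cluster 5 were among them, and that of Myl7 in endothelium-like cells was not.

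In mesenchyme-like cells, where 1.2% of genes were called lower, Tnnt2 measured 40.2, 40.6, 17.3 and 8.74 CPM in Tet-TKO 1 to 4 and 201 and 205 CPM in WT host 1 and 2. Every Tet-TKO library was far below both host libraries, and the call was at a log2 fold change of -2.91 (SE 0.47, edgeR adjusted p = 0.0097). It was lost without Tet-TKO 3 or either host library, and in 4 of 13 alternatives in all. The class joins clusters 11 and 32, and the genotypes were spread over them differently. Cluster 11 held 73.6% to 85.1% of the mesenchyme-like cells in the Tet-TKO libraries and 35.8% and 30.9% in the host libraries. Within cluster 11 Tnnt2 measured 9.33 to 39.7 CPM in Tet-TKO against 110 and 180 CPM in host libraries, and within cluster 32 5.33 to 60.9 CPM against 256 and 216 CPM. In both clusters every Tet-TKO library lay below both host libraries, with no test made within them. The genotype effect on Tnnt2 differed between this class and cardiomyocyte-like cells by a log2 value of 2.69 (SE 0.40, cardiomyocyte-like minus mesenchyme-like, edgeR adjusted p = 0.00092). This was the only one of the 10 called in such tests of the heart class against mesenchyme-like, pharyngeal mesoderm-like, ExE mesoderm-like and allantois-like cells, where 0.42% of all pairs of gene and difference were called, and 1.14% of genes in the difference from mesenchyme-like cells. It was lost without either host library (adjusted p = 0.022 and 0.034). Cardiomyocyte markers in mesenchyme-like cells summed to 274 to 352 CPM in Tet-TKO and 377 to 406 CPM in host libraries, and their part in this result was not tested. Tnni1 in the same cells measured 57.5, 54.1, 29.5 and 30.7 CPM against 128 and 147 CPM, with no overlap but short of the threshold (log2 fold change -1.70, edgeR adjusted p = 0.015).

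In the blood lineage Tnni1 was called in 2 classes. In blood progenitor-like cells it measured 15.2, 18.8, 9.49 and 7.73 CPM against 55.7 and 92.3 CPM and was called (log2 fold change -2.36, SE 0.31, edgeR adjusted p = 0.0043), as 0.475% of genes were called lower. All 4 mutant values lay well below both host values. In the unnamed cluster 5, whose best-scoring markers were those of blood progenitors, it measured 17.9, 13.4 and 7.52 CPM in Tet-TKO 1 to 3 against 63.0 and 81.3 CPM. Tet-TKO 4, with 4 cells, was left out of that fit, and the call (log2 fold change -2.55, SE 0.24, edgeR adjusted p = 0.00026, with 0.716% of genes called lower) held when any other library was left out. The call in blood progenitor-like cells was lost without Tet-TKO 3 or WT host 2, and in 3 of 13 alternatives in all. In erythroid-like cells Tnni1 measured 10.8, 15.7 and 3.35 CPM in Tet-TKO 1 to 3 against 35.9 and 25.9 CPM and was not called (log2 fold change -1.82, edgeR adjusted p = 0.014). Most host cells of that class, 526 of 755 and 1604 of 1925, were in cluster 0, where Tet-TKO 1 to 3 had 0, 6 and 5 cells, while cluster 34 held 15 of 19 and 48 of 58 cells of Tet-TKO 1 and 2. The genotypes were thus compared largely across different clusters there. Myl7 in cluster 5 had 1, 0 and 2 UMIs in Tet-TKO 1 to 3 against 99 and 55 in the host libraries, or 7.11 and 6.82 CPM, and was not called either (log2 fold change -3.31, edgeR adjusted p = 0.013). These host levels lie within the 0 to 12.9 CPM of brain and spinal cord-like cells and are not read as expression. Erythroid markers summed in cluster 5 to 36872 to 67664 CPM in Tet-TKO and 59079 and 71938 CPM in host libraries.

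Myl7 was called in endothelium-like cells, where 0.612% of genes were called lower. It measured 7.94, 5.27, 5.39 and 0 CPM against 131 and 24.5 CPM, so that the host libraries lay far apart. The log2 fold change was -3.74 (SE 0.61, edgeR adjusted p = 0.0084), and without WT host 1 it was -2.07 and not called (adjusted p = 0.12). The call was also lost without any one of the Tet-TKO libraries, with DESeq2, with free RNA subtracted and with like libraries summed, 8 of 13 alternatives in all. The class joins clusters 13, 41 and 46, and the immune genes Fcer1g, Spi1 and Cd74 are among the leading genes of cluster 46, which held 3, 10, 3 and 0 Tet-TKO and 32 and 61 host cells. Cluster 13 held 92.6%, 86.5%, 57.8% and 95.2% of the Tet-TKO cells of the class and 66.1% and 64.1% of the host cells. Within it Myl7 measured 8.35, 6.14, 5.06 and 0 CPM against 192 and 29.9 CPM. In the whole class erythroid markers summed to 6.85 to 81.5 CPM in Tet-TKO and 2527 and 7425 CPM in host libraries. Cardiomyocyte markers summed to 160 to 204 CPM against 167 and 162 CPM. The part of either in the Myl7 level was not tested. In pharyngeal mesoderm-like cells Myl7 measured 24.0, 27.4, 20.6 and 16.3 CPM against 79.6 and 60.3 CPM. These groups did not overlap, and the pair just missed the threshold (log2 fold change -1.65, edgeR adjusted p = 0.011). This class joins clusters 7 and 18, and cluster 7 held 64.1% to 85.5% of its Tet-TKO cells by library and 48.1% and 38.6% of its host cells. Within cluster 7 Myl7 measured 18.0 to 35.1 CPM against 108 and 117 CPM, and within cluster 18 5.53 to 13.5 CPM against 53.3 and 18.7 CPM, without overlap in either. Actc1 in allantois-like cells measured 18.4, 30.1, 24.9 and 37.1 CPM against 70.3 and 109 CPM, again without overlap and short of the call (log2 fold change -1.72, edgeR adjusted p = 0.012), although 7 of 13 alternatives called it. Of the 3 clusters of this class, the groups did not overlap in clusters 4 and 8 and overlapped in cluster 3, where WT host 2 measured 2.10 CPM against 3.02 to 5.75 CPM in Tet-TKO libraries.

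In whole E8.5 libraries, which sum all cells, none of the 10 was called, where 2.65% of 21075 genes were. Of the 10, 5 had a lower and 5 a higher fitted level, with a median of 0.09. Fewer cardiomyocyte-like cells and less RNA per cell cannot be told apart in such sums, and the share of those cells differed between libraries as given above. Nppa measured 0.01, 0.01, 0.65 and 0.26 CPM against 2.29 and 3.15 CPM, the clearest split of the 10 in these sums, and its log2 fold change of -3.77 did not pass (edgeR adjusted p = 0.083). Actc1 in contrast measured 52.3, 37.5, 218 and 187 CPM against 165 and 145 CPM, with Tet-TKO 3 and 4, which had the largest shares of cardiomyocyte-like cells, above the host libraries. With Tet-TKO 1 and 2 alone all 10 genes had a lower fitted level in these sums, and with 3 and 4 alone 2 had a lower and 8 a higher one.

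**Figure D5:**
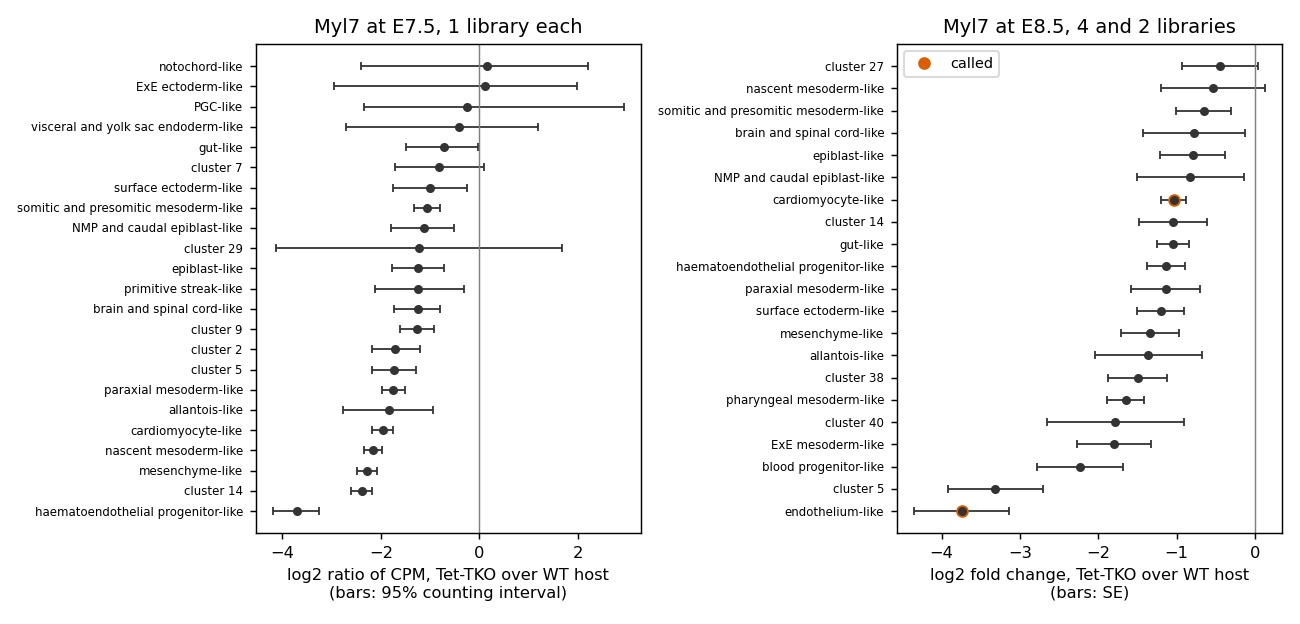
Log2 ratio of Myl7 (Tet-TKO over WT host) by cell class, at E7.5 (left, classes with at least 10 cells and a UMI in both libraries, bars are 95% counting intervals) and at E8.5 (right, fitted classes, bars are SE, called classes coloured). The 23 values at E7.5 run from -3.70 to 0.15, with 21 below 0, and the 21 values at E8.5 run from -3.74 to -0.45.

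At E7.5 there was 1 library per genotype, so no test was made, and the intervals cover counting error only. The cardiomyocyte-like class of this stage was a single cluster with 9 of the 12 markers raised. It held 75 Tet-TKO cells (1.36% of the library) and 212 WT host cells (2.97%). The 10 genes together gave 307 UMIs or 188 CPM in Tet-TKO and 1863 UMIs or 620 CPM in WT host cells, a log2 ratio of -1.73 (95% interval -1.90 to -1.55). Myl7 made up most of this sum. It measured 129 CPM (211 UMIs) against 501 CPM (1504 UMIs), a log2 ratio of -1.96 (-2.17 to -1.75). Tnni1 was the next most abundant, with 36.0 CPM (59 UMIs) against 49.6 CPM (149 UMIs) and a log2 ratio of -0.46 (-0.92 to -0.02). Myl4, with 8 and 80 UMIs, had a log2 ratio of -2.45 (-3.71 to -1.40), and Tnnt2, with 9 and 62 UMIs, one of -1.91 (-3.10 to -0.89). Tnnc1 and Actc1 had intervals that reached 0, with log2 ratios of -0.99 (-2.10 to 0.00) and -1.33 (-3.08 to 0.10).

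All 7 members with a UMI in both libraries were lower in the Tet-TKO library, 4 of them past a log2 ratio of 1 in size. Of the 7, 6 had at least 20 UMIs over the pair of libraries, and their ratios are of plain CPM. Among all 9195 genes with at least 20 UMIs, 3.03% were lower and 0.924% higher by a log2 ratio of 1 on the scale of CPM plus 1. The late genes were barely present: Ttn had 2 and 5 UMIs, Myh6 and Nppa 1 and 0, and Myh7 0 and 0. In ExE ectoderm-like cells, which should lack the program, the 10 genes summed to 13.9 and 11.2 CPM, in 15 Tet-TKO and 1913 host cells. Other E7.5 mesoderm also held Myl7. It measured 12.6 against 164 CPM in haematoendothelial progenitor-like cells (log2 ratio -3.70, interval -4.19 to -3.26), 70.7 against 318 CPM in nascent mesoderm-like cells (-2.17) and 28.7 against 139 CPM in mesenchyme-like cells (-2.28). In paraxial mesoderm-like cells Myl7 measured 132 against 443 CPM (-1.745), and the 10 genes summed to 185 against 486 CPM. These levels were close to those of the cardiomyocyte-like class. Tnnt2 in mesenchyme-like cells measured 9.64 against 70.6 CPM (log2 ratio -2.87, interval -3.23 to -2.53), the same direction as at E8.5, while Tnnc1 there measured 33.9 against 28.4 CPM (0.25). The mesenchyme-like class joins cluster 8, with 262 Tet-TKO and 283 host cells, and cluster 19, with 298 and 20 cells. The median cell of cluster 19 had 0.358 of the median UMIs of its library. The genotypes were thus compared partly across different clusters there, and levels within each cluster were not taken. Some members were higher in the Tet-TKO library with the whole interval above 0. Tnni1 in paraxial mesoderm-like cells measured 41.9 against 21.7 CPM (log2 ratio 0.94, interval 0.41 to 1.48). Tnnc1 measured 22.1 against 9.85 CPM in cluster 9 (1.17, interval 0.52 to 1.89) and 72.2 against 13.5 CPM in visceral and yolk sac endoderm-like cells (2.42). The last value rests on 21 UMIs in 58 Tet-TKO cells and 107 UMIs in 666 host cells. That class joins cluster 12, with 56 Tet-TKO and 319 host cells, and cluster 17, with 2 and 347 cells. Levels within these clusters were not taken either. Over the whole libraries Tnnc1 had a log2 ratio of 0.79 and Myh6 of 0.75, at 7.09 against 4.11 CPM and 0.55 against 0.33 CPM. Myh6 had 58 and 34 UMIs there. The libraries also differed in make-up, as in the ExE ectoderm-like cells above. Numbers of cells and level per cell cannot be told apart in such sums.

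The direction of Myl7 was the same in nearly all classes, but the classes of a stage share libraries and are not independent. At E8.5 its fitted level was lower in 21 of 21 classes, with a median log2 fold change of -1.14, although only 2 of these were called. Tnni1 had a lower fitted level in 19 of 20 classes, with 3 called, and Actc1 was lower in 15 of 16 with none called. Myh7 had the opposite direction, lower in 1 of 7 classes with a median log2 fold change of 0.52 and none called. Over the 26 classes fitted, 0.399% of all pairs of gene and class were called lower. Over the whole E7.5 libraries, which also differed in make-up, the log2 ratio of Myl7 was -1.25. By class it was below 0 in 21 of 23 at E7.5, 17 of them with the whole interval below 0, and the median was -1.25. Brain and spinal cord-like cells were among them, at 9.33 against 22.3 CPM at E7.5 and at 2.04 to 12.9 against 8.31 and 11.4 CPM at E8.5, where the fitted log2 fold change was -0.78 (edgeR adjusted p = 0.60). Part of the low values in non-cardiac classes is therefore at the background level.

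Levels in the cardiomyocyte-like classes of the 2 stages are set side by side without a test. Myl7, already present at E7.5, was 13.3 to 14.2 times its E7.5 level in the host libraries and 23.2 to 35.1 times in the Tet-TKO libraries at E8.5. Tnni1 was 27.9 to 29.3 times its E7.5 level in host and 16.8 to 21.4 times in Tet-TKO libraries. Nppa had 1 UMI at E7.5 in Tet-TKO cells and 0 UMIs in Tet-TKO 1 and 2 at E8.5. The folds of the other genes rest on few E7.5 UMIs and on 1 library per genotype.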

How the data were processed

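For each of 8 libraries (10x Genomics 3′ v3) the authors deposited a matrix of UMI counts, genes by barcodes, mapped with Cell Ranger (3.1.0 in the file headers) to mm10 and counted on the GRCm38.92 annotation with tdTomato added, with no normalization. Cells were kept at 1500 or more UMIs and at most 30% mitochondrial and 35% ribosomal UMIs, as in the study's methods.

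Clustering used scanpy 1.11.5 (2500 variable genes without the 10 genes, the gene lists, Tet genes, tdTomato and sex-linked genes, 50 components, 20 mutual nearest neighbours, Leiden resolution 2), giving 52 clusters at E8.5 and 31 at E7.5. Clusters took a class name with "-like" from marker lists, so classes may differ from those of the study. Doublets were removed only as an alternative. Sums of UMIs over the cells of a class in a library, each from 10 cells or more, were tested with edgeR 4.0.16 in R 4.3.3 (filterByExpr, TMM, glmQLFit, glmQLFTest). Adjustment followed Benjamini and Hochberg over all genes tested. Calls needed both an adjusted p of at most 0.01 and a log2 fold change of at least 1 in size. Cell numbers were called at 0.05. DESeq2 1.42.0 was an alternative. CPM scales the UMIs of a gene to all UMIs of the class in a library. The E7.5 libraries have exact 95% intervals for counting error only, and a count of 0 was set to a floor of 3 counts for folds. Scripts were tested on simulated data. The named genes were the 10 genes, the 3 most abundant and all called genes of each list, and the 8 genes most alike over classes of at least 50 cells with at least 50 CPM. The genes, lists and tests were chosen with earlier results of these data known. Clusters 5 and 27 were added to the mesoderm classes after the clusters were seen. Fits on Tet-TKO 1 and 2 or 3 and 4 alone were chosen after seeing the data.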

Additional observations from a re-analysis of the deposited data

Results flagged for a closer look

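In cluster 26 the Actc1 level of Tet-TKO 2, 211 CPM, stood apart from the other 3 Tet-TKO libraries, with a gap to the nearest of them that was 0.986 of the whole range of the group. The Myh7 level of Tet-TKO 2 in the same cluster, 36.5 CPM, stood apart in the same way (0.924 of the range). Of 40 groups of 4 Tet-TKO values compared in this way, 2 passed the critical value of Dixon's test, and chance passes about 1 in 20. The genotype effect on Tnnt2 differed between cardiomyocyte-like and mesenchyme-like cells by 2.69 on the log2 scale in the test of that difference, the first class having the smaller change. The mesenchyme-like class joins clusters 11 and 32, and cluster 11 held 73.6% to 85.1% of its Tet-TKO cells by library but 35.8% and 30.9% of its host cells.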

How the results depend on the processing

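The number of called genes moved with the processing more than the direction of the sarcomere genes did. In cardiomyocyte-like cells 107 genes were called, against 178 with DESeq2, 425 with no filter on low counts, 413 with libraries 1 and 2 of each genotype paired as a replicate block, 51 with like Tet-TKO libraries summed, 297 with only Tet-TKO 1 and 2, 586 with only 3 and 4, and 20 to 100 with 1 library left out (20 without WT host 1 and 21 without WT host 2). In whole libraries 558 genes were called, against 1475 with DESeq2, 949 with no filter, 1701 with the block, 272 without erythroid-like and extraembryonic-like cells, and 109 to 230 with 1 library left out. With like libraries summed, edgeR called 0 genes there, with 3903 at an unadjusted p under 0.05. Of the pairs of member and other mesoderm class, 4 of 60 were called, against 11 of 127 with DESeq2, 29 of 127 with no filter and 29 of 60 with the block. With only Tet-TKO 1 and 2, 16 of 71 pairs were called, and with only 3 and 4, 23 of 49 pairs over 10 classes. With 1 Tet-TKO library left out 2 to 5 were called (2 without Tet-TKO 3). Of all pairs of gene and class, 0.85% were called, against 0.765% with DESeq2, 1.6% with no filter and 3.2% with the block. The share was 1.89% with only Tet-TKO 1 and 2 and 4.84% with only 3 and 4. It was 0.508% to 0.84% with 1 Tet-TKO library left out. The difference of the genotype effect between classes was called for 1 member, against 4 with no filter and 0 to 2 with 1 library left out (0 without WT host 1 or 2 and 2 without Tet-TKO 1), where 0.42% of all pairs of gene and difference were called, against 0.656% with no filter and 0.0968% to 0.561% with 1 library left out.

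The number of cells was never called (log2 fold change 0.51 to 0.96 with 1 library left out and 0.11 with the block). The difference in the Myh7 share was 25.8 to 30.1 percentage points with 1 library left out. At E7.5 the summed log2 ratio was -1.73 at 3000 UMIs per cell and -1.81 with the background subtracted. Of 560 values for single members, 461 kept direction and call, 53 lost a call, 41 gained one and 5 changed sign. Myh7 in cardiomyocyte-like cells turned to -0.21 with the block and with only Tet-TKO 1 and 2, Myh7 in cluster 25 to -0.14 and -0.15, and Tnnt2 in cluster 25 to 0.085 with only Tet-TKO 3 and 4. The block leaves Tet-TKO 3 and 4 without a partner, so its fold changes come from libraries 1 and 2. The deviations of same-numbered libraries correlated at 0.153 and -0.067, and the labels do not say that the numbers pair the libraries. The causes of these changes were not tested. The calls of members in cardiomyocyte-like cells and in cluster 26 were lost without either host library, and Nppa, Myh6 and Myh7 in cluster 26 rest on few UMIs.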
